A study of Homo sapiens with 2 samples.

Results

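Radixin (RDX), ezrin (EZR), moesin (MSN) and merlin (NF2) are a small family of proteins that tie the plasma membrane to the cell cortex, and their mRNA was followed here in U251 cells, a human glioma line, with and without transfected miR-31. All probe sets whose platform annotation gives exactly 1 of these 4 symbols were taken, which gave 19 probe sets of 4 genes out of 19775 named genes on the array. Another 0 probe sets pair a member with a second gene. The series holds 2 Affymetrix HG-U133_Plus_2 arrays, 1 of U251 cells that received a control and 1 of U251 cells that received miR-31 (spelt has-miR-31 in the labels), both grown in DMEM with serum. The labels do not say what the control construct was, whether expression was transient or stable, whether clones or pools were used, or how long before RNA extraction the cells were transfected. With 1 array per group there is no spread between replicates, no p-value was computed, and every difference is one between a pair of RNA samples. This number of arrays limits the precision.

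Ezrin, radixin and moesin (the ERM proteins) carry an N-terminal FERM domain, which binds membrane proteins and the lipid PIP2, and a C-terminal tail, which binds filamentous actin. In the closed, inactive form the tail folds back onto the FERM domain, and lipid binding with phosphorylation of a conserved threonine in the tail opens the molecule. Merlin has the same FERM domain but lacks the actin-binding tail of the ERM proteins; it is a tumour suppressor that acts through the Hippo pathway and is lost in schwannoma and meningioma. Radixin has been reported as a direct target of miR-31 in glioma, where ERM proteins are known for their part in cell motility and invasion. A microRNA guides Argonaute proteins to matching sites in mRNAs, which lowers mRNA stability or translation; an expression array reads only the mRNA.

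The microRNA that was transfected is shown because its seed, the stretch that pairs with targets, defines which mRNAs are candidates. The sequence is from RefSeq (GRCh38.p14), where mature miR-31-5p lies at chr9:21512158-21512178 on the minus strand and is 21 bases long. Capitals mark the seed, bases 2 to 8.
hsa-miR-31-5p: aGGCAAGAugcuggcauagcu
The hairpin from which it is cut is shown next, with capitals marking the mature 5p arm within its 71 bases.
MIR31 hairpin: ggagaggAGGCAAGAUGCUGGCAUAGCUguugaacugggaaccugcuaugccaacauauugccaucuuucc
The complement of the seed, as a target site would carry it, is UCUUGCC. The mRNAs of the 4 genes were not searched for it, since their untranslated sequences were not used here.

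Values are linear intensities as deposited. A ratio is the difference of log2(intensity + 16) between the arrays, miR-31 less control, so a value of 1 is 2-fold; the added 16 makes differences of dim probe sets look smaller than they are. A probe set was kept where its mean level over both arrays reached that of the middle probe set of the array, an intensity of 62.7. Each gene was read from its kept probe set of highest mean level, which gave 11787 genes in all. Probe sets whose name ends in _s_at can match several transcripts, and those ending in _at are designed to match 1. Of the 19 member probe sets 17 were kept. As a yardstick, the SD of the ratio of a single probe set was 0.33, from the 3142 genes that kept exactly 2; it measures how far probe sets of 1 gene disagree, and holds nothing on how far cultures would.

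The arrays were alike in range, with highest intensities of 44755 (control) and 48627 (miR-31). Trimmed of 2 percent of probe sets at each end, their means were both 500.1, so each array had been scaled. Of the genes compared, 3.74% were at least 2-fold higher and 1.58% at least 2-fold lower on the miR-31 array. The higher genes made up 70.3% of those past 2-fold, a share that was 57.3% under quantile normalization, 59.0% with a level trend removed, 42.0% with hybridisation controls set to 0 and 10.8% with poly-A controls set to 0. Of 16 astroglial and glioma markers, which the labelled cell type should express, 12 were kept. Among them VIM (vimentin) had 29992 and 34112 on the control and miR-31 arrays, SOX2 13333 and 17486, and GFAP 2007 and 3624. In the other direction CRYAB, the 1 marker past 2-fold, had 5312 and 1601, NES 11039 and 5877, and GJA1 13563 and 7186. The summed level of the 16 was 129797 and 111838, and S100B (38.1 and 50.8) and AQP4 (2.08 and 31.3) were below the level minimum. Of 11 microglia and macrophage markers on the array 2 were kept, with summed levels of 349 and 414, and of 9 lymphoid markers 2, with 343 and 429. The leukocyte marker PTPRC had 30.1 and 17.0. Markers of other cell types were not all dim. Of 9 neuron markers 6 were kept, with summed levels of 38971 and 46294, and of 8 fibroblast markers 3, with 19848 and 27436. Epithelial markers summed to 6259 and 3261, endothelial ones to 776 and 511, and oligodendrocyte ones to 3409 and 3507. The arrays also differed in interferon-stimulated genes, with ratios of 3.23 to 6.07 for the 6 looked at here. These 6 were listed because they were known to differ more than any member, so the range tests nothing. IFI44L (58.3 and 4983), MX1 (19.4 and 1977) and RSAD2 (11.6 and 892) were below the level minimum on the control array. The part of these marker and interferon differences in the values of the 4 genes was not tested. The 3' to 5' ratio of GAPDH, a sign of RNA integrity, was 0.95 and 1.01 in this order of arrays, and for ACTB it was 2.39 and 2.17.

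Radixin mRNA was higher, not lower, on the miR-31 array, on all 4 of its probe sets. Ezrin and moesin, which share radixin's domain order, lay close to the control on their well-expressed probe sets, and merlin was slightly lower on 6 of 7 kept probe sets. Only 1 of the 17 kept probe sets of the family reached 2-fold, a radixin probe set, and it was higher. Over all 22467 named and kept probe sets 54.6% were above 0, 3.58% reached 2-fold upward and 1.67% reached it downward, so 1 of 17 is close to the background.

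Radixin is the member reported as a miR-31 target, and its probe set with the highest level, 212397_at, had an intensity of 11422 on the control array and 15244 on the miR-31 array. That is 1.33-fold, a log2 ratio of 0.42. Of all genes compared, 18.8% had a ratio at least as high. That share pools bright and dim genes, and the ratios of dim genes scattered more. The robust SD of the ratio, which extreme values affect little, was 0.29 in the 2947 brightest genes and 0.56 in the dimmest genes. Radixin's 0.42 lies between these values, and the share among genes of similar level is not given here.

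The second radixin probe set, 212398_at, had 1081 and 1454, a ratio of 0.42 as well. The third, 204969_s_at, had 525 and 779, a ratio of 0.56. The dimmest, 244739_at, had 118 and 287, a ratio of 1.17. It was the probe set past 2-fold, and 2.11% of named and kept probe sets had a ratio as high. Radixin was thus higher on the miR-31 array whichever of its probe sets was read, and none of them fell below the control. Its 4 ratios had a mean of 0.64 with an SD of 0.36 over probe sets, which are not replicates of each other. The distance between its lowest and highest ratio was 0.76, against a median distance of 0.59 over the 694 genes with exactly 4 kept probe sets.

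Of those 694 genes, 22.5% also had all 4 ratios above 0. With every ratio at or above radixin's lowest there were 15 genes, 2.16%, radixin among them; that bound was taken from radixin's own value, so the count describes its place and tests nothing. The direction depended on scaling. Centring on the 27 poly-A spike-in probe sets, which were themselves higher on the miR-31 array and shift every ratio by -0.51, gave -0.090 for 212397_at and -0.084 for 212398_at, while 204969_s_at stayed at 0.049 and 244739_at at 0.67. With the other 4 rescalings (quantile, median, level trend, hybridisation controls) all 4 were above 0. They were also above 0 with pseudocounts of 1 and 64, which cannot change a sign.

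**Figure D1:**
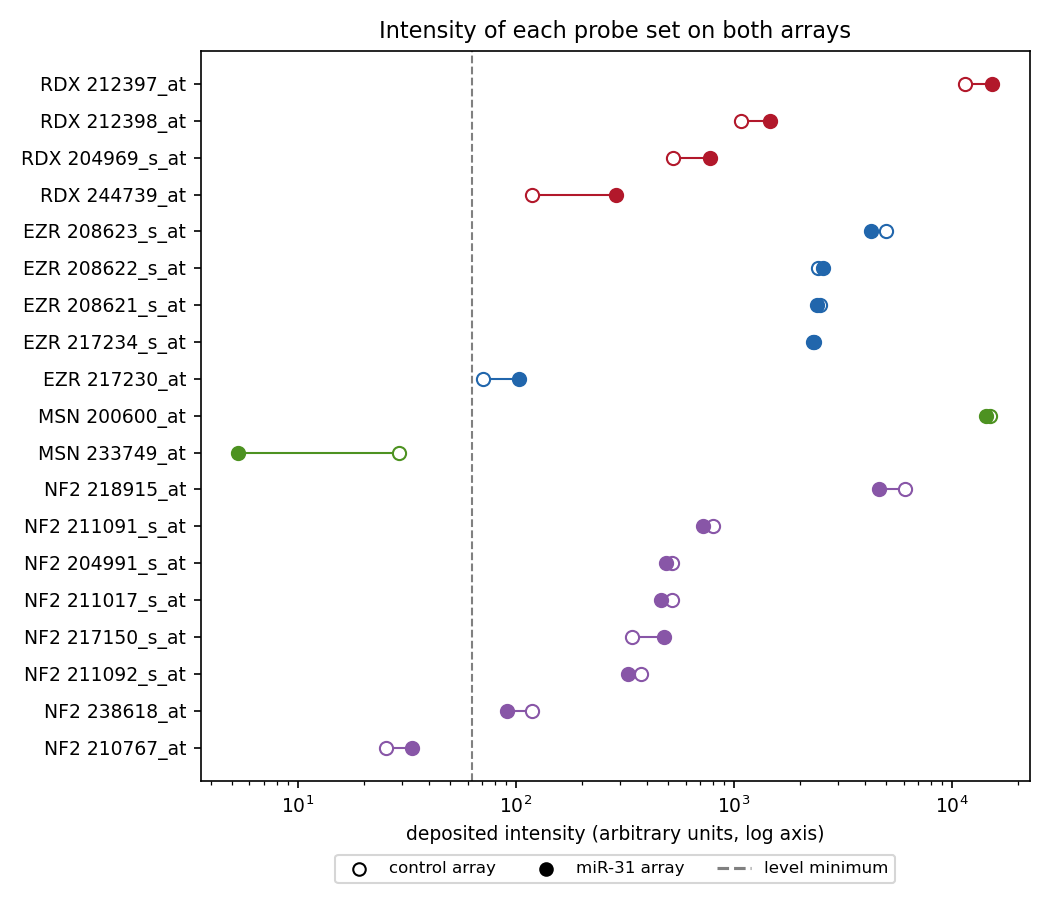
Deposited intensity (arbitrary units, log axis) of each of the 19 probe sets on the control array (open circles) and the miR-31 array (filled circles), coloured by gene, with the level minimum of 62.7 as a dashed line drawn at the mean-level bound. All 4 radixin probe sets have the filled circle to the right, from 118 and 287 for 244739_at up to 11422 and 15244 for 212397_at.

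Ezrin, the ERM protein best known from epithelial microvilli, had 5 probe sets, all kept, with 3 lower and 2 higher on the miR-31 array. The one with the highest level, 208623_s_at, had 4978 on the control array and 4254 on the miR-31 array, a ratio of -0.23. Of all genes compared, 24.8% had a ratio at least as low.

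On the next 3 ezrin probe sets the arrays were nearly equal. Values for 208622_s_at were 2436 and 2554 (0.068), for 208621_s_at 2482 and 2406 (-0.045), and for 217234_s_at 2323 and 2302 (-0.013). All 3 differences are smaller than the yardstick of 0.33.

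The fifth ezrin probe set, 217230_at, stood apart from the others, at 70.3 on the control array and 103 on the miR-31 array, a ratio of 0.46. It sits just above the level minimum. The platform annotation gives it the same source sequence as 217234_s_at, which had -0.013, so a pair of probe sets drawn from 1 record differed by about as much as the SD that the yardstick gives for a difference between ratios, 0.47. It is also the only ezrin probe set not named _s_at, so leaving out the _s_at probe sets gave ezrin a ratio of 0.46 in place of -0.23. The sign of the ezrin ratio thus rests on which probe set is read, with a median over the 5 of -0.013.

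Moesin, the ERM protein that predominates in leukocytes and endothelium, was read well by 1 of its 2 probe sets. On 200600_at the intensity was 14853 on the control array and 14322 on the miR-31 array, a ratio of -0.052. Moesin mRNA was therefore at nearly the same level on both arrays, with 41.1% of all genes compared as low or lower. Its value moved between -0.075 and 0.0081 under the rescalings other than those on spike-in controls, which gave -0.24 and -0.56.

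The other moesin probe set, 233749_at, was below the level minimum on both arrays, at 28.9 and 5.34. Its ratio was -1.07, and its size depended on the pseudocount: it was -2.24 with a pseudocount of 1 and -0.42 with a pseudocount of 64. No detection calls were used here, so neither value can be told from background, and the moesin result is the one of 200600_at.

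Merlin, the tumour suppressor of the family, had 8 probe sets, 7 of them kept, and was lower on the miR-31 array on 6 of these. Over all named and kept probe sets 45.4% were below 0. The probe set with the highest level, 218915_at, had 6109 on the control array and 4639 on the miR-31 array, a ratio of -0.40. Of all genes compared, 13.4% had a ratio at least as low.

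Of the other merlin probe sets, 211091_s_at had 801 and 721 (-0.15), 204991_s_at 520 and 486 (-0.094), and 211017_s_at 520 and 462 (-0.17). Further down, 211092_s_at had 375 and 327 (-0.19) and 238618_at 118 and 90.9 (-0.33). These 5 differences point the same way and each is within the yardstick of 0.33.

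The exception was 217150_s_at, with 340 on the control array and 479 on the miR-31 array, a ratio of 0.47. Merlin is spliced into several isoforms, and the 8 probe sets cite 8 different source records, but which exons each one covers was not examined. The probe set below the level minimum, 210767_at, had 25.3 and 33.4 (0.26). Over the 7 kept probe sets the mean was -0.12 with an SD of 0.28 over probe sets, and the median -0.17, so the value of -0.40 is the lowest reading of merlin and not its typical one. All 6 lower probe sets stayed below 0 under quantile normalization and with the level trend removed. The median and spike-in centrings lower every ratio and a pseudocount cannot change a sign, so these could not have raised them above 0.

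**Figure D2:**
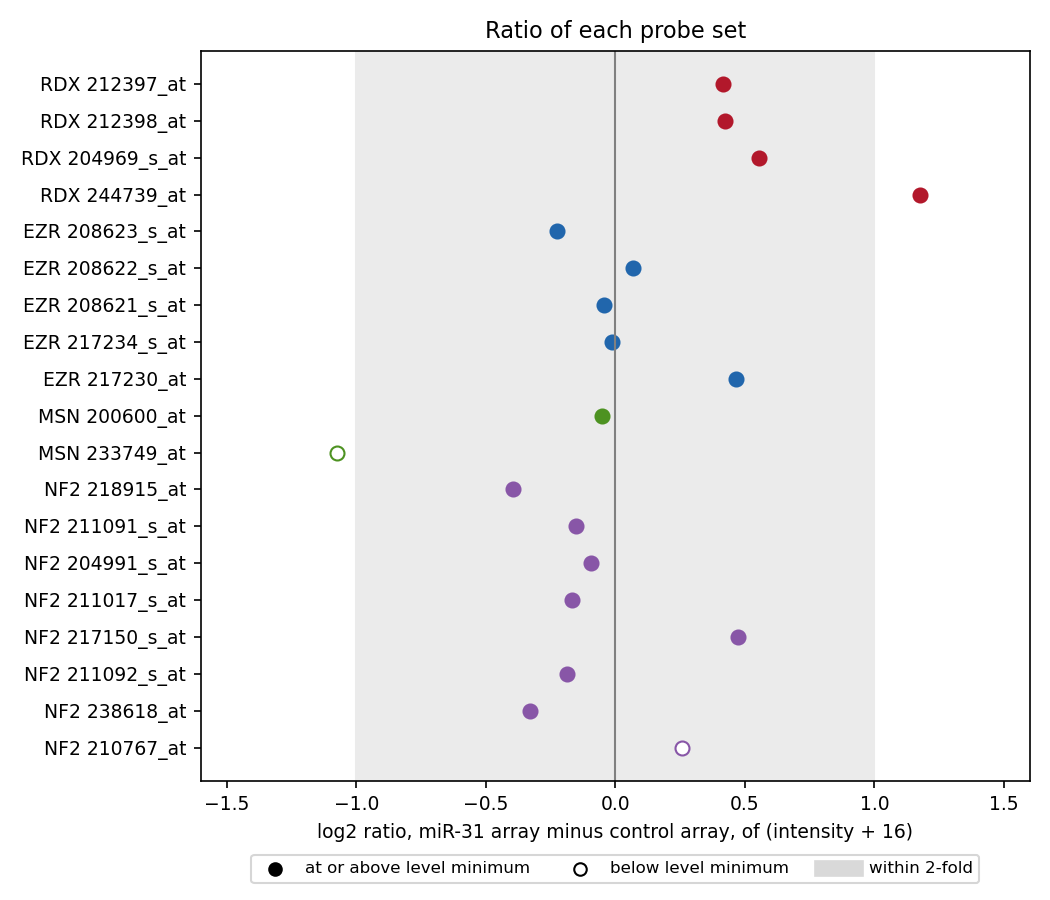
Log2 ratio of each of the 19 probe sets, miR-31 array minus control array, of (intensity + 16), with the band within 2-fold shaded and probe sets below the level minimum as open circles. Among the filled circles the radixin values run from 0.42 to 1.17 and the 13 of the other genes from -0.40 to 0.47, and only 244739_at lies outside the band.

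Since a scaling factor common to all genes cancels between members, radixin was also set against each relative. Its ratio exceeded that of merlin by 0.81, that of ezrin by 0.64 and that of moesin by 0.47. The ratios used for radixin, merlin and ezrin are each the lowest among the kept probe sets of the gene. Their medians over kept probe sets were 0.49, -0.17 and -0.013. The yardstick for a difference between ratios of a pair of probe sets is 0.47, so the differences from merlin and ezrin are larger than it and that from moesin is about equal to it. Over the reported and 11 other ways of processing, the difference from merlin ran from 0.76 to 0.83 and that from moesin from 0.47 to 0.69. Many of these ways could not move the differences. The median and spike-in centrings shift every ratio alike, and a changed level filter left the same brightest probe sets. Those of radixin, merlin and moesin are also not named _s_at, so leaving such probe sets out kept their differences. A changed pseudocount hardly alters the ratio of probe sets this bright. The difference from ezrin ran from -0.049 to 0.66, with the lowest value where the _s_at probe sets were left out. None of these differences has a replicate check.

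**Figure D3:**
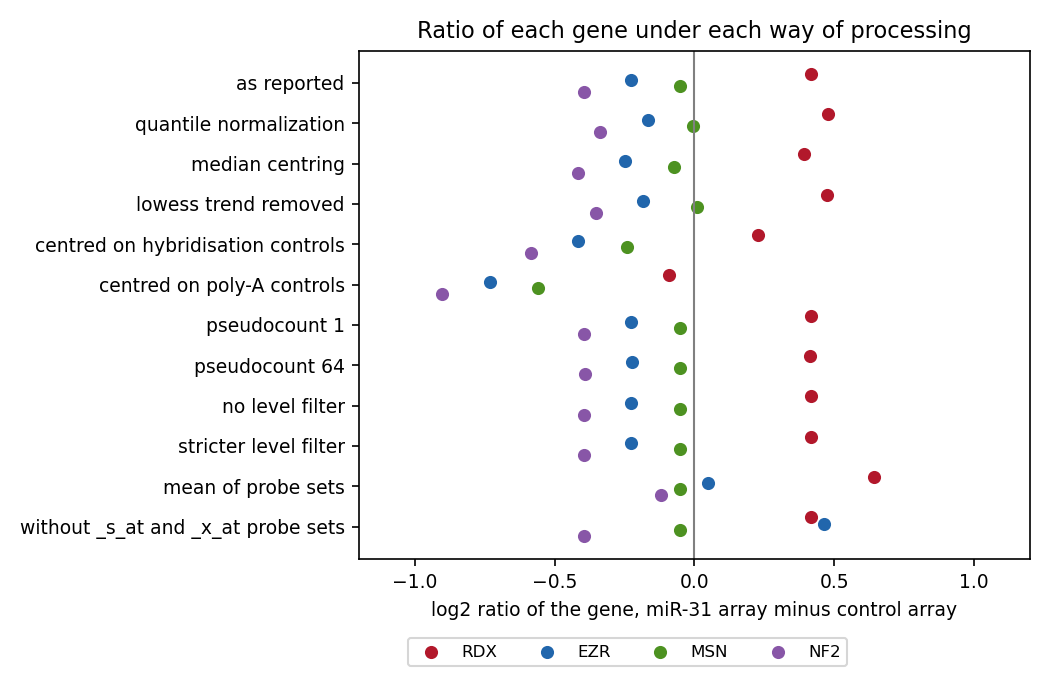
Log2 ratio of each gene, miR-31 array minus control array, as reported (top row) and under 11 other ways of processing, coloured by gene. Radixin lies to the right of merlin in every row, by a distance that the centrings, the level filters and leaving out _s_at probe sets could not change. Centring on the poly-A controls moves all 4 genes to the left by the same amount, radixin to -0.090.

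By the likeness of their level on both arrays, the genes nearest to radixin were NDUFB5, with 11330 on the control array and 14753 on the miR-31 array, UQCR11, with 11754 and 14970, and AK3, with 11858 and 14763. Likeness is the distance between pairs of log2 levels, over only 2 arrays. It says that their probe sets gave similar readings.

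The partners of the family were then taken by role. The counts over all partners include 1 list that is not described on its own. Of 158 partner genes listed, 125 were compared, and 2 of these (1.6%) lay below the control by 2-fold or more and 0 above it by as much. Over all genes compared the shares were 1.58% lower and 3.74% higher, and the median ratio of the 125 was -0.031 against 0.033. In the share at least 2-fold lower and in the median the partners thus lay close to the rest of the array. In the share at least 2-fold higher they did not, with 0 against 3.74%.

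Kinases listed as phosphorylating the tail threonine of ERM proteins or as activating them in other ways, those that make PIP2 included, were nearly level. Of 15 compared, 10 were lower and 5 higher, none reached 2-fold, and the median ratio was -0.10. Over all genes 46.8% were below 0, 3.74% at least 2-fold higher and 1.58% at least 2-fold lower. MAP4K4 had the largest difference, 3794 on the control array and 2476 on the miR-31 array (-0.61), and all 5 of its probe sets were lower, between -0.63 and -0.33. STK24 had -0.26, PAK2 -0.24 and PRKCQ -0.22, with another PRKCQ probe set at 0.85. That probe set (50.3 and 104) was below the level minimum on the control array.

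Of the 5 phosphatase genes compared, 4 were lower and 1 higher, with a median of -0.16, where over all genes 46.8% were below 0. PPP1CB, a catalytic subunit of protein phosphatase 1, had 9300 and 10819 (0.22), and its 4 probe sets were all higher, between 0.11 and 0.97. PPP1CC, another catalytic subunit, had -0.28. PPP1R12A, the myosin phosphatase targeting subunit through which the enzyme acts on ERM proteins and merlin, had -0.23 and up to 0.11 on another probe set. PPP1R12B had -0.16.

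Scaffolds and signalling proteins listed as partners of the family were split, with 6 higher and 6 lower of 12 and a median of 0.048. Over all genes 46.8% were below 0. NHERF1, the PDZ scaffold that links ERM proteins to membrane channels, had 683 and 764 (0.16), and NHERF2 had 66.4 and 101 (0.51). DLG1, a polarity scaffold, had 6416 and 8364 (0.38), and all 6 of its kept probe sets were higher, up to 1.09. The dimmest of the 6 (61.1 and 109) was below the level minimum on the control array. In the other direction DLC1, a GTPase-activating protein, had 715 and 375 (-0.90, and -1.40 on another probe set). PRKAR2A, a regulatory subunit of protein kinase A, had -0.61, with 5 probe sets between -0.61 and 0.40. The median of the list was -0.063 with the stricter level filter, -0.14 with hybridisation controls set to 0 and -0.46 with poly-A controls set to 0.

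Membrane proteins that ERM proteins hold at the cortex were higher in 10 of 14 genes, with a median of 0.17 and none past 2-fold. Over all genes 53.2% were above 0. Both without a level filter, over 21 genes, and with the stricter one, over 9, the median was 0.085. Of the 10 higher genes, SELPLG (59.2 and 66.5) and CRB3 (54.5 and 73.7) were below the level minimum on the control array, so the count of 10 rests in part on the filter; both were named after their values were seen, as were the markers above. PODXL, the sialomucin podocalyxin, had 1239 on the control array and 2369 on the miR-31 array (0.93). SPN, which encodes CD43, had 0.87 from a control intensity of 165, with its other kept probe set at 0.19 and another below the level minimum at -1.11, and MUC1 had 0.83 from 119. CD9, a tetraspanin, had 0.55. CD44, the hyaluronan receptor and the ERM partner most studied in glioma, had 23866 and 20146 (-0.24), and its 10 kept probe sets ran from -0.69 to 0.28. The median of the list was -0.019 when centred on the hybridisation controls and -0.34 on the poly-A controls.

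The list of Hippo pathway genes and other partners of merlin held the 2 partner genes past 2-fold. Of 28 compared, 19 were lower and 9 higher, with a median of -0.22, where over all genes 46.8% were below 0. ANKRD1, a target gene of YAP, had 15495 on the control array and 4106 on the miR-31 array (-1.91). AMOTL1, a junction protein that binds YAP and merlin, had 1992 and 917 (-1.11, with 4 probe sets between -1.39 and -0.44). The one at -0.44 (87.5 and 60.3) was below the level minimum on the miR-31 array. CCN2, another YAP target, had 26227 and 14113 (-0.89). The kinase LATS2, itself reported as a miR-31 target, had 1699 and 1191 (-0.51), with 3 kept probe sets between -0.51 and -0.13 and a dim one at 1.51. AMOT was higher, with 52.4 and 108 (0.86). It was below the level minimum on the control array, so the count of 9 higher genes rests in part on the filter.

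Of 26 other FERM domain genes compared, 16 were lower and 10 higher, with a median of -0.066 and none past 2-fold. Over all genes 46.8% were below 0, 3.74% at least 2-fold higher and 1.58% at least 2-fold lower. TLN2, which encodes talin 2, a linker of integrins to actin, had 433 and 212 (-0.98, and -1.01 on its other kept probe set). MYO10, a motor of filopodia, had 1136 and 654 (-0.78), with 4 probe sets between -1.80 and -0.36. Those at -1.80 (180 and 40.3) and -0.36 (73.3 and 53.7) were below the level minimum on the miR-31 array. FERMT1, which encodes kindlin 1, an integrin activator, had 97.4 and 171 (0.72), with 3 probe sets between 0.72 and 1.10. The one at 1.10 (57.6 and 142) was below the level minimum on the control array. EPB41L4B had 0.67 from 121. MYLIP, a ubiquitin ligase that binds the myosin light chain, was level at 552 and 542 (-0.025), with 5 probe sets between -0.049 and 0.50. The median of these 26 genes was 0.038 when the probe sets of a gene were averaged.

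**Figure D4:**
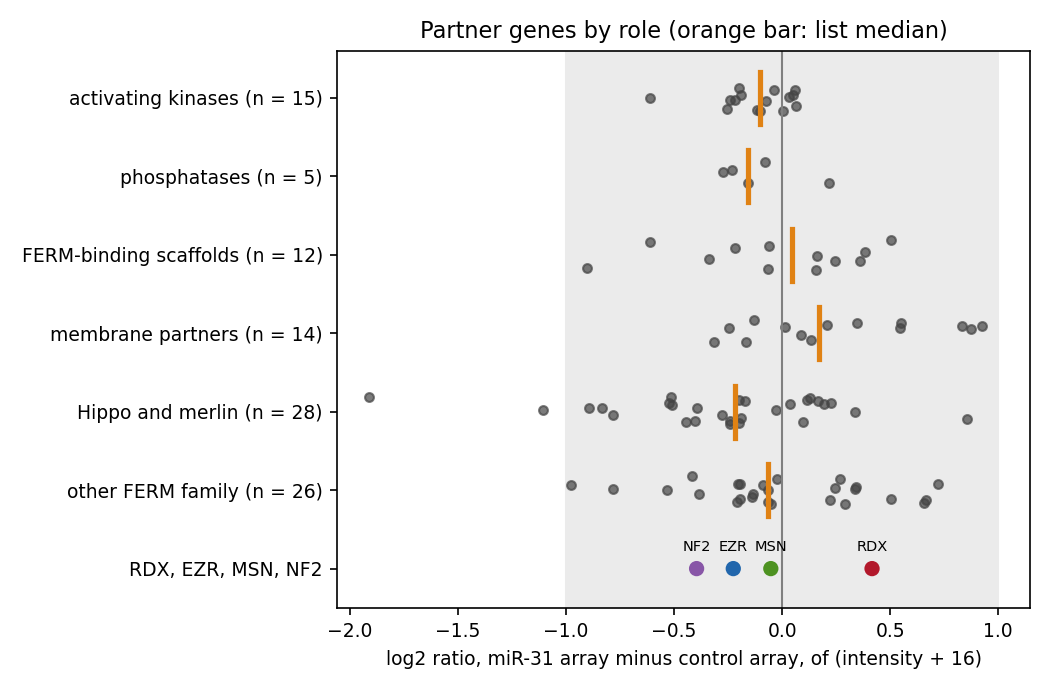
Log2 ratio, miR-31 array minus control array, of (intensity + 16), for each gene (points) of the 6 partner lists described, with the list median as an orange bar, the band within 2-fold shaded, and the 4 genes of the family in the bottom row. List medians lie between -0.22 (Hippo and merlin partners) and 0.17 (membrane partners), radixin at 0.42 lies to the right of all of them, and ANKRD1 at -1.91 and AMOTL1 at -1.11 are the points outside the band.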

How the data were processed

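Intensities of 54675 probe sets on 2 arrays, linear and already scaled, were used as deposited; their software: not given in the sources used here. Per the labels' protocols, 250 ng of total RNA was labelled with biotin by 3' in vitro transcription. Of the probe sets 41097 carried 1 symbol in the supplied platform annotation, 1801 several and 11777 are unnamed here; Entrez identifiers tied 41043 to RefSeq genes and altered 0 symbols. Gene values exclude the array's 62 control probe sets. Values were taken as log2(intensity + 16), filtered on mean level and compared between the arrays without a test, as each group has 1 array. The calculation was tested on simulated data. The members, partner lists and rules were chosen with earlier results of these data known. Named were all member probe sets, up to 4 partner genes of each list with the largest absolute ratio, with CD44, NHERF1, MYLIP and LATS2 in any case, and the 3 genes nearest to radixin; some items of the rule are not reported here. Hybridisation (18) and poly-A (27) control probe sets gave alternative scalings. Python 3.11.15, numpy 2.4.6, pandas 2.3.3, statsmodels 0.14.6 and matplotlib 3.10.9 were used.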

Additional observations from a re-analysis of the deposited data

How the results depend on the processing

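No paired analysis was possible because there is only 1 array on each side, and leaving one out would leave no comparison. Intensities carry no counts, so low values cannot be separated from background. Centring on the poly-A controls moved the ratio of RDX from 0.42 to -0.090, of EZR from -0.23 to -0.73, of MSN from -0.052 to -0.56 and of NF2 from -0.40 to -0.90, and without _s_at and _x_at probe sets EZR had 0.46. Under the other alternatives these 4 ratios moved by less than the yardstick, with MSN between -0.24 and 0.0081. EZR changed sign, to 0.050, when the probe sets of a gene were averaged. The 1 member probe set past 2-fold became 0 with either spike-in centring, a pseudocount of 64 or the stricter level filter (an intensity of 271), and 2 without a level filter. The 2 partner genes past 2-fold became 6 with the hybridisation controls, 15 with the poly-A controls, 4 with a pseudocount of 1, 7 without a level filter, 4 without _s_at and _x_at probe sets and 17 at 1.5-fold. Filters, thresholds, pseudocounts and the choice of probe sets by their construction alter how many can pass. The spike-in centrings shift every ratio by a constant, -0.19 for the hybridisation and -0.51 for the poly-A controls, which moves the counts and ratios given. Why these controls were higher on the miR-31 array was not tested. The median of each list described was below 0 when centred on the poly-A controls.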
